A study of Rattus norvegicus with 8 samples.

Results

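The plasminogen activator genes of the rat dentate gyrus (DG), the serpins that inhibit the activators, and the genes that start and check coagulation were compared between E2-replaced and oil-injected females after status epilepticus (SE), the state of continuous seizures that kainic acid induces. The 8 genes, taken by their names on the array, were Plat, Plau, Plaur, Serpine2, Serpini1, F3, Thbd and F2r, out of 35199 gene names. They were read by 9 probes on 18 spots of each array, and the identifier of each of the 9 probes matched the RefSeq gene of the same name. All rats were adult female Sprague-Dawley rats that had been ovariectomized and had gone through SE. The COS group was 4 rats given oil, and the CES group was 4 rats given 17β-estradiol benzoate (E2), per the labels 4 doses of 2 µg, 1 every 24 h, with 2 doses before and 2 after SE. The labels give 16 mg/kg of kainic acid, with pentobarbital used to stop SE after 5 h, whereas the study's methods describe a lower dose of kainic acid, an end by diazepam and all E2 injections before SE. The methods also place the collection of tissue at different times in different paragraphs, and the labels give no time, so how long after SE these levels were read is not settled here. Rats without SE were not analysed here, so a difference between CES and COS cannot be split into a change with SE and a change with E2.

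Tissue plasminogen activator (tPA, gene Plat) and urokinase (uPA, gene Plau) are serine proteases that cut plasminogen into plasmin, which dissolves fibrin and digests extracellular matrix. In the brain tPA is released by neurons and also acts on receptors and growth factor precursors, and it is a well known immediate-early product of seizures in the hippocampus. Serpins such as neuroserpin (Serpini1) and protease nexin-1 (Serpine2) trap these proteases or thrombin in a dead-end complex, whereas tissue factor (F3), thrombomodulin (Thbd) and the thrombin receptor (F2r) set how thrombin is made, redirected and sensed.

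After SE, the RNA of tPA, tissue factor and thrombomodulin was lower with E2 and that of neuroserpin was modestly higher. Plat was 4.23-fold lower, Thbd 5.82-fold lower and F3 2.43-fold lower in CES than in COS, each without overlap between the groups, and Serpini1 was 1.71-fold higher, with overlap. Plau and Plaur, the uPA receptor, stood well above background in all 4 COS rats but in only 1 of 4 CES rats. Serpine2 differed by less than the spread between rats, and F2r was too dim to be measured.

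Each spot holds a single-stranded DNA probe of 60 bases, and positions below are in the rn4 build. The probes of the activators and of the uPA receptor are shown because the signals that differed most in the activator arm rest on them. Plat was read by 1 probe repeated on 10 spots, at chr16:73717402-73717547 on the minus strand, an interval of 146 genomic bases for a probe of 60 bases. Plau was read by 1 spot at chr15:3680711-3680770 on the minus strand, and Plaur by 1 spot at chr1:79713035-79713094 on the plus strand. The annotation of exons in that build was not used here.
Plat: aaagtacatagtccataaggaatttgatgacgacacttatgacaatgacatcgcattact
Plau: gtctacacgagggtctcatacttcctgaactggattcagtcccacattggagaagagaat
Plaur: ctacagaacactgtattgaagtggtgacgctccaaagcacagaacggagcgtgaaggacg

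A level is given on the log2 scale, as the log2 of the signal minus local background of a gene's spots over the median of the valid spots of the same rat, so that 0 is the median valid spot and a step of 1 is a doubling. A spot was valid where its foreground was at least 2 times its background, and a gene was tested where it had a spot valid in all 8 rats. This held for 21332 gene names and for 6 of the 8 genes. A level can be compared between rats but not between genes, since probes differ in how they bind. Differences are CES minus COS with their standard error, from limma with Benjamini-Hochberg adjustment over all 21332 gene names. The median difference over all of them was -0.25, so each value relative to that median is also given. Across the tested genes 34.1% were called, 28.3% lower and 5.80% higher in CES, and 3 of the 6 tested genes were called lower and 1 higher. Their median difference was -0.88. The groups did not overlap, with CES lower, in 3 of the 6, against 19.8% of all genes tested, and with CES higher in 0 of the 6, against 1.61%.

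The RNA of the activator tPA was lower in every E2-replaced rat. The Plat level in COS rats 1 to 4 was 2.83, 2.99, 3.17 and 2.62, and in CES rats 1 to 4 it was 0.38, 1.65, 0.86 and 0.40. Every COS rat lay above every CES rat, and CES rat 2 was the nearest to the COS rats. Its mean fell from 2.90 ± 0.23 (SD, n = 4) to 0.82 ± 0.59 (SD, n = 4). The difference of -2.08 (standard error 0.28) had a limma adjusted p of 0.00375 and was -1.83 relative to all genes. Taken singly, the 10 spots of the probe differed by -1.71 to -2.34. A difference at or below that of Plat was found in 325 genes, 1.52% of those tested. Fewer cells that make the transcript and less transcript per cell cannot be told apart in RNA from whole tissue, for this and every gene below.

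The urokinase arm was read near the limit of the arrays in the E2-replaced rats. The Plau spot had intensities of 1480, 1540, 396 and 818 over local backgrounds of 66, 39, 54 and 40 in COS rats 1 to 4, and of 106, 242, 96.6 and 76.6 over 54, 39, 46 and 41.5 in CES rats 1 to 4. Foreground was thus 7.33 to 39.5 times background in COS and 1.85 to 6.21 times in CES. It was below the minimum for a valid spot in CES rats 1 and 4, which is why Plau was left out of the test, and only CES rat 2 was marked well above background. Without the filter, the Plau level was 2.11, 1.39, 0.52 and 0.12 in COS and -2.38, -1.62, -2.02 and -3.82 in CES. The groups did not overlap, which without the filter was so, with CES lower, for 12.4% of all 35199 gene names. The size of the difference was not measured, since 3 of the 4 CES spots were not well above background: the fit without the filter gave -3.49 (standard error 0.57), and 11 alternatives gave -4.51 to -1.75. Its limma adjusted p was 0.0351 over those names, where 7.66% were called lower. That call did not hold without COS rat 1, 2, 3 or 4 or CES rat 1, each left out in turn, nor after normexp background correction, with limma adjusted p between 0.0818 and 0.434.

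Plaur encodes the receptor that holds uPA at the cell surface. Its spot had intensities of 773, 1570, 718 and 1730 in COS rats 1 to 4 and of 132, 881, 96.9 and 58.5 in CES rats 1 to 4, over local backgrounds from 34.5 to 52. CES rat 2 alone was marked well above background in its group, at 23.2 times its background, and the spot of CES rat 4, at 1.70 times, was not valid. Without the filter, the Plaur level was 1.14, 1.42, 1.48 and 1.24 in COS and -1.72, 0.44, -2.07 and -4.37 in CES. The COS rats lay within a narrow band above all CES rats, and the CES rats were far apart. Here too the size of the difference was not measured: the fit gave -3.25 (standard error 0.90), missed the threshold with a limma adjusted p of 0.0581, and ran from -4.47 to -1.73 over 11 alternatives. It passed the limma threshold without CES rat 2, at -4.21 (adjusted p = 0.00315), without CES rat 4, at -2.22 (adjusted p = 0.0333), and on the signal as processed by the scanner software, at -4.47 (adjusted p = 0.0404).

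**Figure D1:**
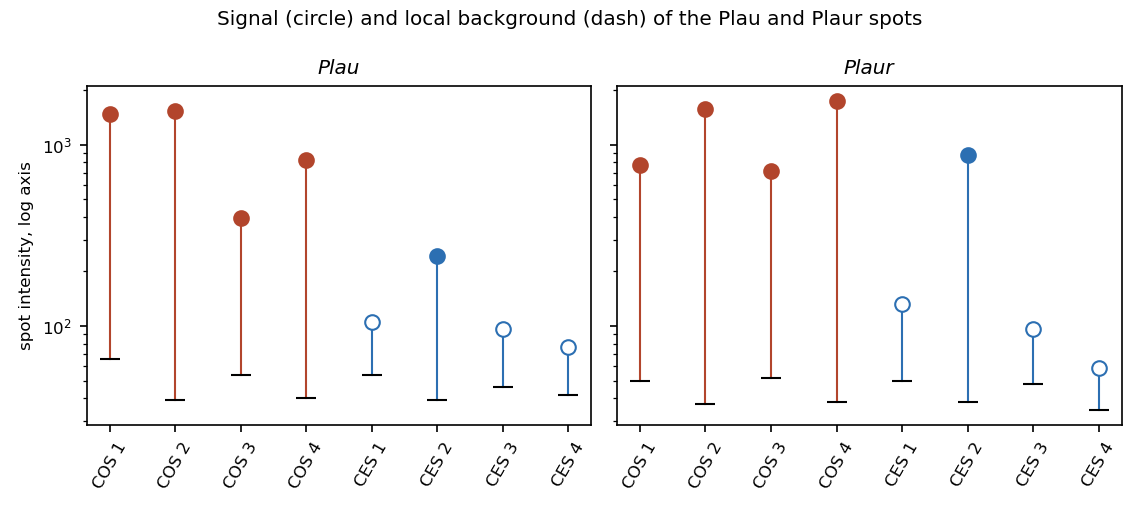
Spot intensity (circle, log axis) and local background (dash) of the Plau and Plaur spots in each rat, filled where the scanner software marked the spot well above background. All 4 COS rats are filled for both genes, and of the CES rats only rat 2 is, at 242 for Plau and 881 for Plaur.

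Neither of these serpins was called lower with E2. Serpini1, neuroserpin, is made by neurons and inhibits tPA. Its probe lay at chr2:166554339-166554398 on the plus strand, and its level was 4.41, 4.42, 4.81 and 4.22 in COS and 5.27, 4.53, 5.56 and 5.58 in CES. CES rats 1, 3 and 4 lay above all COS rats, and CES rat 2 lay below COS rat 3. Its mean rose from 4.47 ± 0.25 (SD, n = 4) to 5.24 ± 0.49 (SD, n = 4). The difference of 0.77 (standard error 0.24) had a limma adjusted p of 0.0314 and was 1.02 relative to all genes. A difference at or above it was found in 827 genes, 3.88% of those tested. This call is the least firm of the group: Serpini1 stayed higher in CES, by 0.46 to 1.17, under all 23 alternatives, but missed the threshold in 10 of them, including when any single rat other than CES rats 2 and 4 was left out, with adjusted p up to 0.191.

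Serpine2, protease nexin-1, inhibits thrombin as well as tPA and uPA. It was read by probes at chr9:79114055-79114114 and chr9:79091862-79091921, both on the minus strand. Its level was 2.56, 2.58, 2.88 and 2.09 in COS and 2.98, 2.04, 3.29 and 2.97 in CES. The groups overlapped, with CES rat 2 the lowest of all 8. The difference of 0.30 (standard error 0.23) did not pass the test (limma adjusted p = 0.350), and the probes went opposite ways, with differences of -0.12 and 0.34.

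Because both levels of a pair come from the same channel, the ratio of 1 gene to another within a rat does not depend on how the channel was scaled, and only its shift between groups has a meaning. The log2 ratio of Plat to Serpini1 was -1.58, -1.42, -1.64 and -1.60 in COS and -4.89, -2.87, -4.70 and -5.18 in CES. The COS rats kept nearly the same ratio, 0.09 in SD against 1.04 in CES, and no CES rat reached it. The shift was -2.85. The ratio of Plat to Serpine2 was 0.27, 0.42, 0.29 and 0.53 in COS and -2.60, -0.39, -2.43 and -2.57 in CES, a shift of -2.38, again without overlap. Each shift is made of the differences of its genes given above, so it is no separate support for the lower Plat. Each shift had an exact permutation p of 0.0286, two-sided, the smallest that 4 against 4 rats can give. It was 0.0357 after Benjamini-Hochberg adjustment over the 5 pairs compared. For every pair the permutation exchanged rats singly, although 2 rats of the same group shared each array. It therefore cannot tell a difference between arrays from one between groups. The other pairs were F3 to Thbd, given below, and Plau to Serpine2 and Plaur to Plau, for which no shift is given because most CES spots of Plau and Plaur were not well above background.

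**Figure D2:**
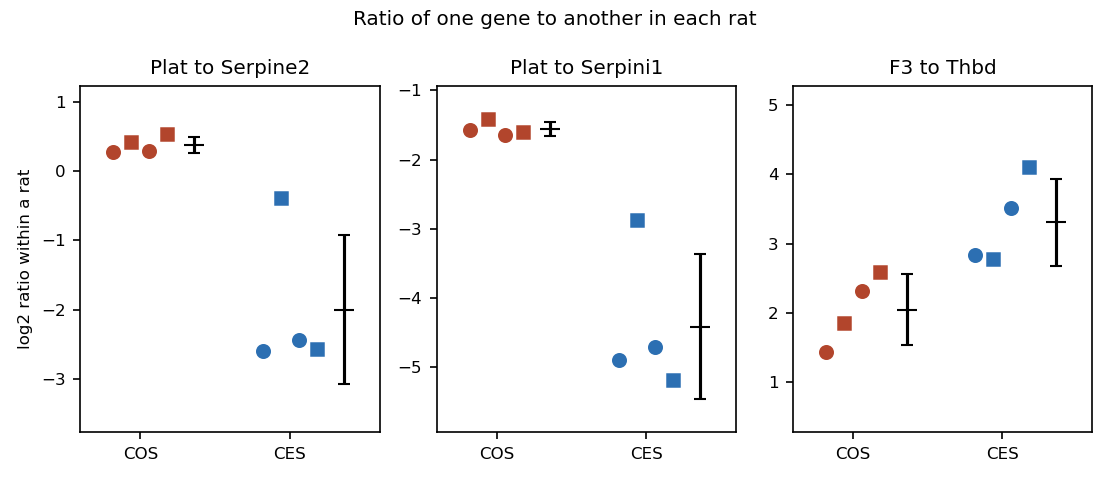
Log2 ratio of 1 gene to another within each rat, circles for Cy3 and squares for Cy5, with the mean and SD of each group of 4 rats. Both ratios of Plat to a serpin are lower in every CES rat, with CES rat 2 the nearest to COS, and the ratio of F3 to Thbd is higher in every CES rat.

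The RNA of the starter of coagulation and that of the receptor that redirects thrombin were both lower with E2, by unequal amounts. Tissue factor, the product of F3, binds factor VII to begin the cascade, and in brain it is made mainly by astrocytes. Its probe lay at chr2:218382225-218382283 on the plus strand, and its level was 4.10, 4.27, 4.45 and 4.13 in COS and 2.42, 3.50, 3.18 and 2.73 in CES. All COS rats lay above all CES rats. The means were 4.24 ± 0.16 (SD, n = 4) and 2.96 ± 0.48 (SD, n = 4), and the difference of -1.28 (standard error 0.24) had a limma adjusted p of 0.00558 and was -1.03 relative to all genes. The F3 call did not hold without COS rat 3, at -1.16 (adjusted p = 0.0587), nor after normexp correction, at -1.05 (adjusted p = 0.142).

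Thrombomodulin, the product of Thbd, sits on endothelium and turns thrombin from clotting to the activation of protein C. Its probe lay at chr3:137158969-137159028 on the minus strand, and its level was 2.66, 2.42, 2.14 and 1.54 in COS and -0.42, 0.72, -0.33 and -1.37 in CES. Again no CES rat reached the lowest COS rat, and CES rat 2 was the highest of its group. The means were 2.19 ± 0.48 (SD, n = 4) and -0.35 ± 0.85 (SD, n = 4). The difference of -2.54 (standard error 0.40), the largest among the 6 genes tested, had a limma adjusted p of 0.00414 and was -2.29 relative to all genes. The log2 ratio of F3 to Thbd was 1.44, 1.85, 2.31 and 2.59 in COS and 2.84, 2.78, 3.51 and 4.11 in CES, so Thbd was lower by more than F3, with a shift of 1.26 (exact permutation p = 0.0286, two-sided). That shift was 0.76 (exact p = 0.143) after normexp correction and 0.69 (exact p = 0.0571) after loess and Aquantile normalization.

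F2r encodes the protease-activated receptor PAR1, which thrombin cuts to signal into the cell. Its probe, at chr2:25986221-25986280 on the minus strand, stood well above background in no COS rat and in 1 CES rat. The F2r level ran from -3.20 to -1.50 in COS and from -3.49 to -1.96 in CES, with wide overlap. The difference of -0.49 (standard error 0.21) did not pass the test (limma adjusted p = 0.0966), and no fold is given for a probe so close to background.

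**Figure D3:**
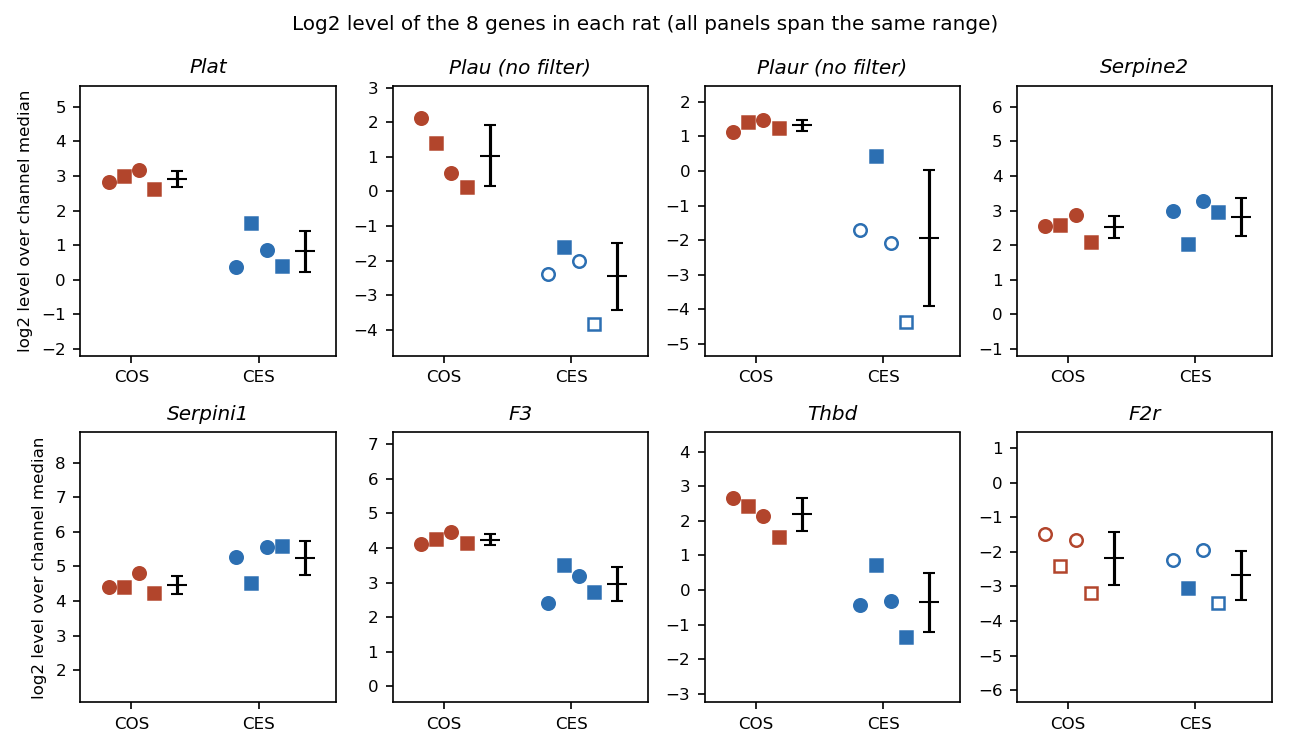
Log2 level over the channel median of the 8 genes in each rat, circles for Cy3 and squares for Cy5, filled where a spot of the gene was well above background, with the mean and SD of each group of 4 rats. Plat, Plau, Plaur, F3 and Thbd are lower in every CES rat, Serpini1 is higher in 3 of 4 CES rats than in any COS rat, and Serpine2 and F2r overlap.

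CES rat 2 was the CES rat nearest to the COS rats for Plat, Plau, Plaur, Serpini1, F3 and Thbd. It shared its array with CES rat 1, which was not near them. Without CES rat 2 the differences were -2.39 for Plat, -3.01 for Thbd, -1.47 for F3 and 0.99 for Serpini1, each farther from 0 than with all rats. That rat was singled out for lying nearest to COS, so larger differences without it follow from the choice and add no support.

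Related genes were described from a list of 55 genes of fibrinolysis, coagulation and the serpins, of which 53 were on the array and 36 were tested. In CES 20 of the 36 were called lower and 1 higher, beside 28.3% and 5.80% of all genes tested, and the median difference was -0.96, or -0.71 relative to all genes. After loess and Aquantile normalization the calls were 10 lower and 2 higher, beside 2220 lower and 3302 higher among all 21332 genes tested. All 7 tested genes of the list's group of other serpins were called lower, as were 3 of 4 genes of the anticoagulant and protein C group and 2 of 4 plasminogen and plasmin inhibitor genes. These groups are those of the chosen list, not all such genes on the array. Plasminogen itself (Plg) did not pass the filter, nor did any of the 3 other protease-activated receptors.

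Tfpi2, a matrix-bound inhibitor of plasmin and of the tissue factor complex, differed by -4.91 (standard error 0.92, limma adjusted p = 0.00569), from a COS range of 1.99 to 4.43 to a CES range of -3.55 to 1.26. Only 1 CES rat was well above background for Tfpi2, so the size of this difference is uncertain. Procr, the endothelial protein C receptor that works beside thrombomodulin, differed by -4.37 (standard error 0.68, adjusted p = 0.00401), from 3.55 to 4.25 in COS to -1.82 to 2.09 in CES, where 3 rats were well above background. Neither gene overlapped between the groups.

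Anxa2, annexin A2, binds tPA and plasminogen at the cell surface together with S100a10. The Anxa2 level was 5.84, 5.84, 5.76 and 5.45 in COS and 1.71, 4.82, 1.91 and 1.68 in CES, a difference of -3.19 (standard error 0.58, limma adjusted p = 0.00527). Its partner S100a10, chosen after its value was seen, differed by -2.31 (adjusted p = 0.0194). Serpina3n, an acute-phase serpin of reactive astrocytes, had levels of 4.96, 4.44, 4.43 and 4.53 in COS and 1.87, 4.37, 0.45 and -1.45 in CES, where rat 2 lay beside the COS rats. Its difference was -3.28 (standard error 0.97, adjusted p = 0.0276).

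The only called rise in the list was Klk8, neuropsin, a secreted protease of neurons that acts on synaptic adhesion. Its level was 1.25, 0.90, 1.30 and 0.59 in COS and 3.33, 2.12, 4.08 and 3.55 in CES, with every CES rat above every COS rat, and it differed by 2.26 (standard error 0.30, limma adjusted p = 0.00370). The receptors that take up tPA with its inhibitors or pass on its signals, also chosen after their values were seen, were not called, with differences of 0.05 for Lrp1, -0.19 for Lrp8 and -0.25 for Vldlr.

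**Figure D4:**
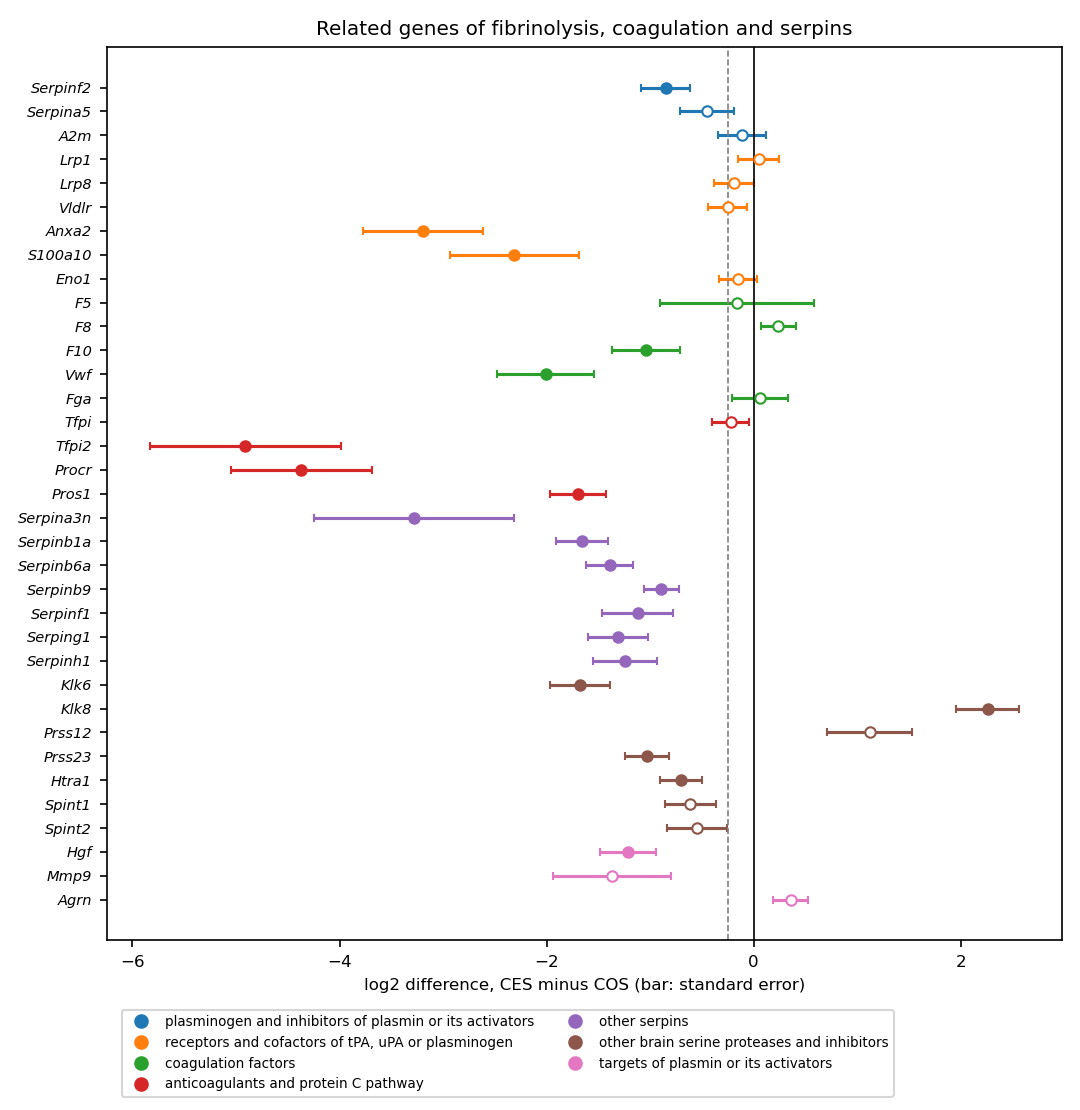
Log2 difference, CES minus COS, of 35 of the tested related genes by group, with the standard error as a bar, filled where the limma adjusted p is under 0.05, and the dashed line at the median of all genes, -0.25. Of the genes shown 19 are filled on the left of 0 and Klk8 alone is filled on the right.

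The labelled tissue and the other cells it could hold were checked by marker genes. The DG markers Calb1 and C1ql2 were well above background in all 8 rats. Of the other granule neuron markers, Snap25 and Syt1 were so too, and Dsp was in 3 COS and 2 CES rats. Prox1 did not pass the filter, and Rbfox3 was not on the array. The counts of markers called are to be read beside the 28.3% of all genes called lower and 5.80% called higher. Among endothelial markers 3 of 5 tested were called lower and 0 higher, with a summed level of 4.69 to 5.35 in COS and 4.00 to 4.84 in CES. Among mural cell markers 2 of 3 were called lower and 1 higher, with a summed level of 5.34 to 6.18 and 3.18 to 4.84. Levels were summed before the log2 step, so the brightest gene of a list weighs most, here Tagln. Tagln differed by -2.59 and Pdgfrb by -1.25, while Rgs5 was higher by 0.79. Among leukocyte markers 1 of 3 was called lower, Lyz2 at -2.54, a gene that microglia also make, while Ccr2 and Cd163 did not pass the filter. Microglia markers had 3 of 6 called lower and 1 higher, whereas 2 of 5 astrocyte markers were called higher and 0 lower. Those called were Aldh1l1, at 1.23, and Gja1, at 1.27, while Gfap went the other way, at -1.19, without being called (limma adjusted p = 0.0620). Granule neuron markers had 2 of 5 called lower and 1 higher, fibroblast markers 1 of 4 lower and 1 higher, and oligodendrocyte and choroid plexus markers none of 5 and none of 3, although the choroid plexus sum ran from 3.72 to 9.26 in COS and from 3.96 to 7.58 in CES. All 7 tested activity genes, such as Fos and Arc, were called lower, with a median difference of -2.04. The part of these cell types and of neuronal activity in the differences of Plat, Thbd, F3 and Serpini1 was not tested.

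As a description over the 8 rats, the genes whose levels ran most like Thbd were Nfkb2, at a Pearson r of 0.9948, Fbln5, at 0.9943, and an expressed sequence with no gene symbol, at 0.9935. For Plat they were Hist2h3c2, at 0.9987, a probe with no gene name, at 0.9973, and Id1, at 0.9970. The rats share slide, dye and group, and 1205 genes had an r over 0.95 with Thbd and 1377 with Plat.

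The start regions were searched for the sequence TGACTCA and its reverse complement TGAGTCA, the site of the Fos and Jun factors known as AP-1. The site was chosen because the activity genes were lower in CES, and a part of AP-1 in any difference was not tested. In the RefSeq promoters of the GRCr8 build, 5 of the 8 genes had an entry. Plat, Thbd and F3, the genes called lower, had none and could not be searched. Over the 250 bases before the start, Plaur held 1 match, 83 bases before it, F2r held 1, 194 bases before it, and Plau, Serpini1 and Serpine2 held none, beside 4.05% of all 33469 promoters with either sequence. A match describes the letters only. The Plaur promoter, chr1:89181113-89181362 on the plus strand, is shown with its match in capitals, as the gene with a match that was measured above background in COS.
Plaur promoter: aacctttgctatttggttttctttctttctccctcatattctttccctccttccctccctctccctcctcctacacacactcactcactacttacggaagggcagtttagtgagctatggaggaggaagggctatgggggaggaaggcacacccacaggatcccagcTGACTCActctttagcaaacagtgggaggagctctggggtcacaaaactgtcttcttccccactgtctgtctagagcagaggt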

How the data were processed

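Total RNA from the DG of 8 rats was labeled with Cy3 (replicates 1 and 3 of each group) or Cy5 (replicates 2 and 4), and 2 rats of the same group shared each of 4 arrays on 1 slide. The deposited scanner files give, per channel, the intensity of every spot and of the background around it, extracted with Agilent Feature Extraction 10.7.3.1 and not normalized by the authors. A log2 table deposited by the authors holds median signal less background on that scale, shifted by a constant in each channel, and was used as an alternative. Each array had 43379 non-control spots, of which 32381 to 38553 were valid in COS and 30690 to 35352 in CES.

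From each mean signal the median of the local background was subtracted. The result was scaled to the median valid spot of its channel, averaged over those spots of a gene name valid in every rat, and log2-transformed. Without the filter, values were set to at least 1 before scaling. The groups were compared two-sided in limma 3.58.1 (R 4.3.3) with a fixed dye term and a random block for the array (statmod 1.5.0, correlation -0.01), at a threshold of 0.05. An array holds rats of 1 group only, so array and group cannot be told apart except through that random block. The array correlation depended on the processing. Over the alternatives it ran from -0.50 without the dye term to 0.57 with normexp, and it was 0.24 after loess with Aquantile. The median standard error of a difference was 0.20. At a correlation of -0.01 the fit treats the rats nearly as independent, so this value does not carry the limit set by having only 4 arrays. The fit was tested on simulated data of this layout for CES against COS over 21332 genes. It called 56 of 100 genes changed by 2 on the log2 scale and 3 of 100 changed by 1. Of its 66 calls, 7 were false. The simulation had a higher array correlation than the data and few changed genes, so these counts need not hold for the data. No spot of the 8 genes was saturated. Positions are those the files give.

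The genes and lists were chosen with earlier results of these data known. Named singly are the 8 genes, the 5 largest called rises and falls of the related list (1 of which is not reported here, though the list's counts include it), and the 3 genes most like each of the 2 genes with the largest called difference. Other related genes named singly were chosen after their values were seen, and marker genes come from lists by cell type. Alternatives were normexp correction with an offset of 50, the processed signal, loess with Aquantile, quantile normalization, no filter, a foreground of 3 times background, spots marked well above background, fits lacking the array block or the dye term, a replicate block, the brightest probe, RefSeq names, the methods' t-test, the table of log2 values, scaling over spots valid in all rats, and leaving out each rat in turn. Settings of Plau and Plaur without the filter beyond this were added after seeing the data. Python 3.11.15, numpy 2.4.6, pandas 2.3.3, data.table (1.17.8) and matplotlib 3.10.9 were also used.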

Additional observations from a re-analysis of the deposited data

Results flagged for a closer look

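In the values given per rat, 38 groups of 4 were checked for a rat far from the other 3, and CES replicate 2 was so in 2 of them, where chance alone marks about 1 group in 20. Its log2 ratio of Plat to Serpine2 was -0.39, against -2.43 in the nearest other CES rat and -2.60 in the lowest. Its Anxa2 level was 4.82, against 1.91 in the nearest and 1.68 in the lowest. Without CES replicate 2 the differences of Plat, Thbd, F3 and Serpini1 were larger in size, as given above, which follows from its lying nearest to COS.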

How the results depend on the processing

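The direction of each of the 6 tested genes was the same under every alternative that gave a value. Plat and Thbd missed the threshold only in the methods' t-test, adjusted here by Benjamini-Hochberg over all genes (adjusted p = 0.0772 for each). So adjusted, it called 0 genes in all, 0 of them lower and 0 higher, and 0 members of either list. An unadjusted p under 0.05 was found for 6103 genes by that test and for 9633 by limma. The study's methods describe the t-test with a correction for redundant spots and a fold cut-off for each gene, not this adjustment. The 0 calls are therefore not what the study's own procedure would give. Over all genes 7276 were called, 6038 lower and 1238 higher, and the split depended on the scaling. Lower calls made up 83.0% of the calls, but 40.2% after loess and Aquantile (2220 lower, 3302 higher), 42.1% after quantile normalization (2221 and 3055), 37.0% in the deposited log2 table (1927 and 3275), 33.9% when scaled over spots valid in all rats (1718 and 3348) and 69.0% with a foreground of 3 times background (2828 lower of 4100). The median difference of all genes moved from -0.25 to 0.04, 0.06, 0.12, 0.15 and -0.15 in these. Normexp left 577 calls, 454 lower and 123 higher, and no filter left 3100, 2696 lower and 404 higher. Of 16757 genes tested at 3 times background, 2828 were called lower and 1272 higher. With the mark for well above background, 5370 of 13680 genes tested were called lower and 1261 higher. Of the 8 genes, 0 were called higher with normexp, with the processed signal or without the filter. Of the related list, 20 lower and 1 higher became 7 lower with normexp, 10 and 2 after loess, 11 and 3 after quantile normalization, 9 lower of 29 tested at 3 times background, 13 and 2 of 22 tested with the mark for well above background, 10 and 3 in the log2 table, 10 and 3 when scaled over spots valid in all rats, and 2 higher without the dye term.

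Leaving out 1 rat gave 1133 to 8776 calls, 885 to 7076 lower and 248 to 1837 higher, 2 to 4 of the 8 genes lower and 0 to 1 higher, and 5 to 23 of the related list lower and 1 to 2 higher. The lowest counts, 1133, 885, 248 and 5, came without COS replicate 3. The ratios within a rat ran from -2.91 to -2.18 for Plat to Serpine2, from -3.36 to -2.59 for Plat to Serpini1 and from 1.00 to 1.44 for F3 to Thbd. The exact p of both Plat ratios was then 0.0571 with any 1 COS rat left out and 0.0286 with any 1 CES rat left out. That of F3 to Thbd ran from 0.0286 to 0.0857. With 1 rat left out, 0.0286 is the smallest exact p and 0.0571 is the next value it can take. The cause of these changes was not tested.

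With the replicate number as a block, 3 of the 8 genes were called lower and 1 higher as without it, and the related list had 2 called higher. Rats of the same number in both groups deviated together (r of 0.21 to 0.34), but not once the dye that they share was removed (r of -0.06 to -0.04), so the numbers were not taken to pair the rats. F2r had no value with the stricter filters, since its spot did not pass them.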
